A study of Mus musculus with 15 samples.

Results

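Activating transcription factor 4 (ATF4) and 9 further genes of the amino acid response were read in mouse kidney 2 h after D-alanine, L-alanine or vehicle. The genes were Atf4, Ddit3, Atf5, Trib3, Asns, Chac1, Sesn2, Ppp1r15a, Cebpb and Pck2, taken by symbol, and the deposited table held all 10 among its 23284 genes. The 15 libraries were RNA sequencing libraries of whole kidney from wild-type mice. They fell into 3 groups of 5, namely D-alanine (D-ala), L-alanine (L-ala) and vehicle, each labelled with 2 h. The 2 alanines are mirror forms of 1 amino acid. Ribosomes use L-alanine, and D-alanine is broken down by D-amino acid oxidase of kidney peroxisomes. The sources used here give no dose, route, vehicle make-up, strain, sex or age, so the effect of the mirror form and any effect of unequal dose cannot be told apart. The labels do not say that the libraries came from separate animals, so the p-values measure the spread between these libraries, which may be technical. In a bulk sample of kidney, fewer cells of a type and less RNA per cell cannot be told apart either.

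When amino acids run short or unfolded proteins build up, stress kinases phosphorylate the translation factor eIF2α, general translation slows, and the ATF4 messenger RNA is translated more. ATF4 then pairs with CCAAT/enhancer-binding proteins (C/EBP) on composite DNA elements near genes for amino acid supply, redox balance, cell death and the restart of translation. The proximal tubule of the kidney reabsorbs amino acids from the filtrate and makes glucose from some of them.

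Stretches of promoter that hold the letters of such elements are shown first. Genes with and without them in the searched windows can thus be set beside their levels. The C/EBP-ATF response element was searched as TGATGNAA and the cAMP response element as TGACGTCA, on both strands, in RefSeq promoter windows of build GRCm38.p6 that run from 250 bases before to 50 bases after a start site. All 10 genes had a window, and no window of theirs held both motifs. TGATGNAA was found in the windows of 4 of the 10 genes, against 4.51% of the 27025 genes with a window, and TGACGTCA in that of 1, against 2.03%. Each line gives 30 bases of the gene's strand, 5′ to 3′, with the motif or its reverse complement in capitals.
Chac1 (chr2:119351038-119351067, plus strand): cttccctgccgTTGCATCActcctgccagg
Trib3 (chr2:152344028-152344057, minus strand): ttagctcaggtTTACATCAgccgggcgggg
Asns (chr6:7693214-7693243, minus strand): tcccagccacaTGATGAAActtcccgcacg
Pck2 (chr14:55540152-55540181, plus strand): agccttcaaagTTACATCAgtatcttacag
Ppp1r15a (chr7:45526262-45526291, minus strand): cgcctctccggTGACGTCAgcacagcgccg
The matches began 193 bases before the start site in Chac1, 103 before it in Pck2, 23 before it in Asns and 12 before it in Ppp1r15a, and 14 bases after it in Trib3. Such a match is a description of letters, not a measured binding site. Sequence outside these windows was not searched, so a gene without a match here may hold the letters elsewhere. In the comparisons below Ppp1r15a passed the test, Chac1, Asns and Pck2 did not, and Trib3 was too low to test.

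Levels of the genes differed widely (the plot of FPKM by library). Atf4 was the most abundant, with a mean of 115.6 FPKM over the 15 libraries, where FPKM is the number of sequenced fragments divided by transcript length and by the depth of the library, hence a level per length. Next came Cebpb, which codes for a C/EBP partner of ATF4, at 67.1 FPKM, and Ddit3, which codes for the stress factor CHOP, at 52.1 FPKM. Sesn2 at 21.1 FPKM and Ppp1r15a at 19.9 FPKM followed, then Atf5 at 8.63, Pck2 at 5.98 and Asns at 2.17 FPKM. Chac1 averaged 1.33 FPKM and reached 1 FPKM in 6 libraries (3 D-ala, 2 L-ala, 1 vehicle), and Trib3 averaged 0.596 FPKM and reached 1 FPKM in 1 library. The 5 most abundant genes were factors and feedback or signalling proteins. The enzymes lay lower, but so did the factor Atf5 and the feedback gene Trib3, the lowest of all. Neighbours in this order changed place between groups. Ppp1r15a and Sesn2 averaged 25.7 ± 0.980 and 25.3 ± 5.51 FPKM in D-ala libraries, a gap within their spread, and 13.9 ± 2.82 and 20.3 ± 3.90 FPKM in vehicle libraries (SD, n = 5 each).

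**Figure D1:**
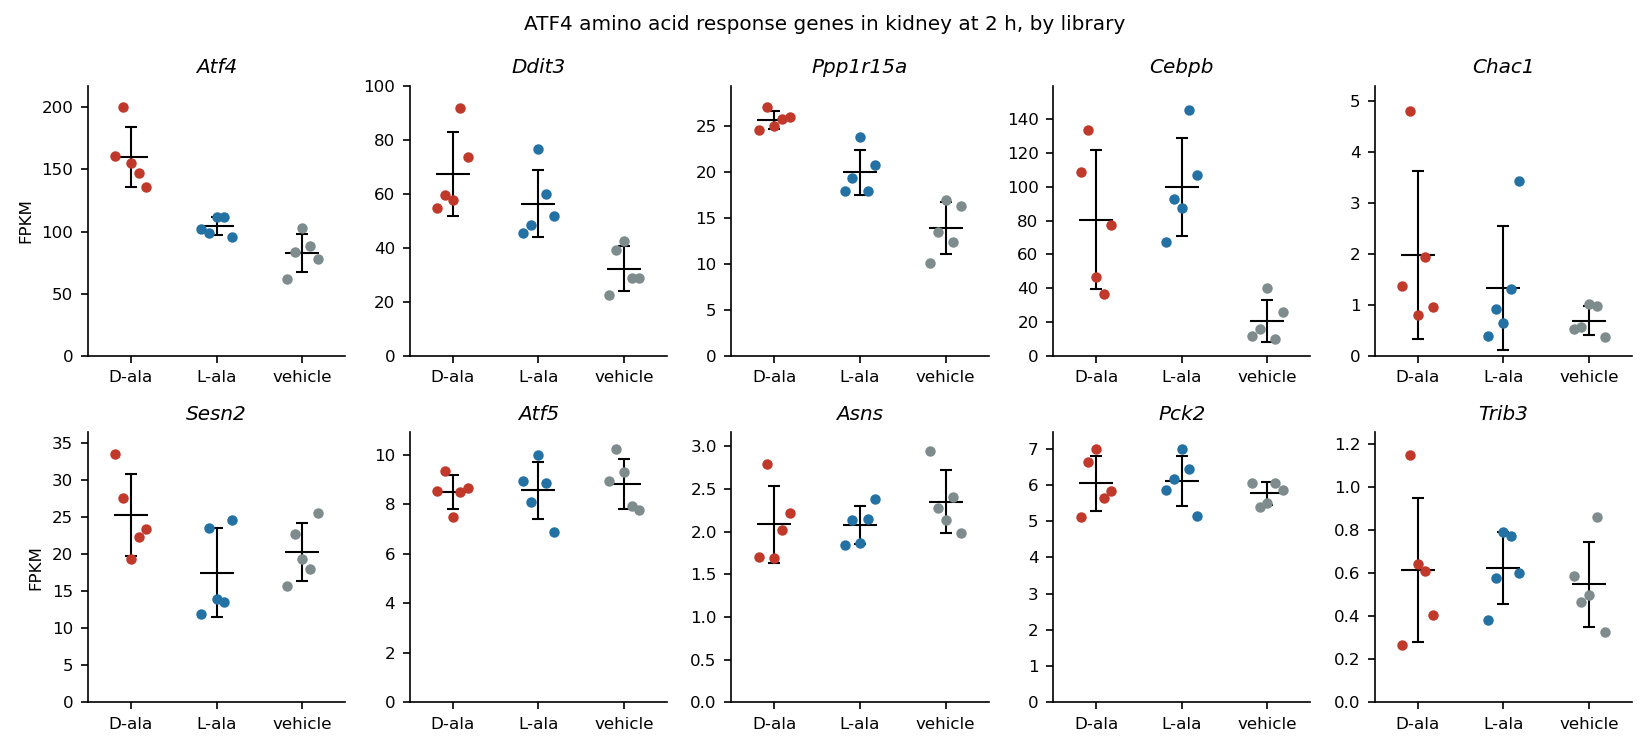
FPKM of each gene in each library (points), with the mean and SD of the 5 libraries of a group (bars), for D-ala, L-ala and vehicle; every vertical axis starts at 0. All D-ala libraries lie above all vehicle libraries for Atf4, Ddit3 and Ppp1r15a, whereas Atf5, Asns, Pck2 and Trib3 overlap in all 3 groups.

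The libraries held an estimated 7.57 to 10.9 M reads counted on genes each, as recovered from the deposited rescaled counts. The library named L-ala replicate 5 stood apart in log2(FPKM + 1) once each gene's mean over the 15 libraries was subtracted. On this centred scale it correlated with its own group at -0.12 on average, against 0.0709 to 0.29 for the other 14. Such values measure shared departures from the mean, not the likeness of whole profiles. Calls of the genes below that change without L-ala replicate 5 are given with those genes. Proximal tubule markers were abundant in every library, with a summed 8017 to 9399 FPKM in D-ala, 7944 to 8672 in L-ala and 6706 to 7359 in vehicle libraries. Their mean log2 level was 8.96 ± 0.06 in D-ala and 8.91 ± 0.08 in L-ala against 8.74 ± 0.07 in vehicle libraries (SD, n = 5 each; exact permutation p = 0.00794 for each against vehicle, the smallest this design gives), and 3 of the 7 markers passed the test as higher in each comparison with vehicle. Neutrophil markers were higher in L-ala libraries, with a summed 2.196 to 10.99 FPKM in D-ala, 12.9 to 34.6 in L-ala and 0.611 to 7.62 in vehicle libraries, and Mpo, Elane and Camp of that list were at 0 in all. Red blood cell markers summed to 35.7 to 355.7 FPKM in D-ala, 216 to 586 in L-ala and 19.7 to 216 in vehicle libraries. Macrophage and dendritic markers summed to 104 to 159 FPKM in D-ala, 117.7 to 200.6 in L-ala and 139.9 to 246.5 in vehicle libraries. Their mean log2 level was lower in D-ala than in vehicle libraries (exact permutation p = 0.0159), and 2 of the 6 tested markers were called lower. L-ala libraries lay between (exact permutation p = 0.0556 against vehicle and 0.0714 against D-ala). Adipocyte markers summed to 70.5 to 499.5 FPKM in D-ala, 146 to 242 in L-ala and 99.8 to 433 in vehicle libraries. The part of these cell types in the results below was not tested.

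Against vehicle, D-ala raised 4 of the 9 genes that could be tested, and all 4 code for a transcription factor or a feedback subunit. Atf4, Ddit3, Ppp1r15a and Cebpb rose, and none of the 9 fell, nor did any at an unadjusted p under 0.05 in limma or with voom. Among all 11781 genes tested, 6.53% were called higher and 4.92% lower, at a Benjamini-Hochberg adjusted p under 0.05 in limma. The median log2 fold change of the 9 genes was 0.69, against 0.0011 over all genes tested. The same 4 genes were called in each of the 25 alternatives, the leaving out of any 1 library included.

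Atf4, on chromosome 15 (80255184 to 80257541, plus strand), codes for the factor that drives the response. It had 160.5, 199.9, 155, 147 and 136 FPKM in D-ala libraries, against 61.7, 83.2, 103, 88.1 and 77.9 FPKM in vehicle libraries. Every D-ala library was above every vehicle library, D-ala replicate 2 being the highest. The mean was 1.93 times that of vehicle, and the log2 fold change of (FPKM + 1) was 0.95 (SE 0.12, 95% interval 0.70 to 1.19, adjusted p = 8.83e-05).

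Ddit3, on chromosome 10 (127290774 to 127296288, plus strand), codes for CHOP, a C/EBP relative tied to cell death under lasting stress. Its FPKM were 54.6, 59.5, 57.6, 91.8 and 73.6 in D-ala libraries, against 22.6, 39.2, 42.5, 28.96 and 28.8 in vehicle libraries. Here too the groups did not overlap, and D-ala replicates 4 and 5 were highest. The ratio of means was 2.08 and the log2 fold change 1.04 (SE 0.18, 95% interval 0.65 to 1.44, adjusted p = 0.00251). GENCODE lists a second gene of the same name on the same strand across 2925 of its bases, so reads may have been divided between them.

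Ppp1r15a, on chromosome 7 (45522916 to 45526268, minus strand), codes for GADD34, the stress-induced phosphatase subunit that takes the phosphate off eIF2α and lets translation resume. D-ala libraries had 24.6, 27.1, 24.97, 25.8 and 25.99 FPKM, against 10.2, 13.5, 17.002, 12.4 and 16.3 FPKM in vehicle libraries. The 5 D-ala values lay close together, with a coefficient of variation of 3.81% against 20.3% in vehicle libraries, and none overlapped with vehicle. Its log2 fold change was 0.86 (SE 0.11, 95% interval 0.63 to 1.09, adjusted p = 1.26e-04), and the ratio of means was 1.85. These 3 genes are the members whose groups were separated, against 6.12% of all genes tested that lay higher without overlap.

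Cebpb, on chromosome 2 (167688915 to 167690418, plus strand), had the largest fold change of the 9 genes and the widest spread of the 4 that rose. It read 109, 134, 46.7, 36.4 and 77.2 FPKM in D-ala libraries, against 11.8, 15.8, 40.3, 9.85 and 25.7 FPKM in vehicle libraries. In 4 of the 5 D-ala libraries it was above every vehicle library, and D-ala replicate 4 lay under vehicle replicate 3. The log2 fold change was 1.93 (SE 0.42, 95% interval 1.02 to 2.84, adjusted p = 0.0115), and the ratio of means 3.90. C/EBPβ is also abundant in myeloid cells; neutrophil markers averaged 0.52 ± 0.23 on the log2 scale in D-ala and 0.46 ± 0.22 in vehicle libraries (SD, n = 5 each; exact permutation p = 0.691), and macrophage and dendritic markers 2.80 ± 0.13 and 3.21 ± 0.17 (exact permutation p = 0.0159). Their part in the level of Cebpb was not tested.

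**Figure D2:**
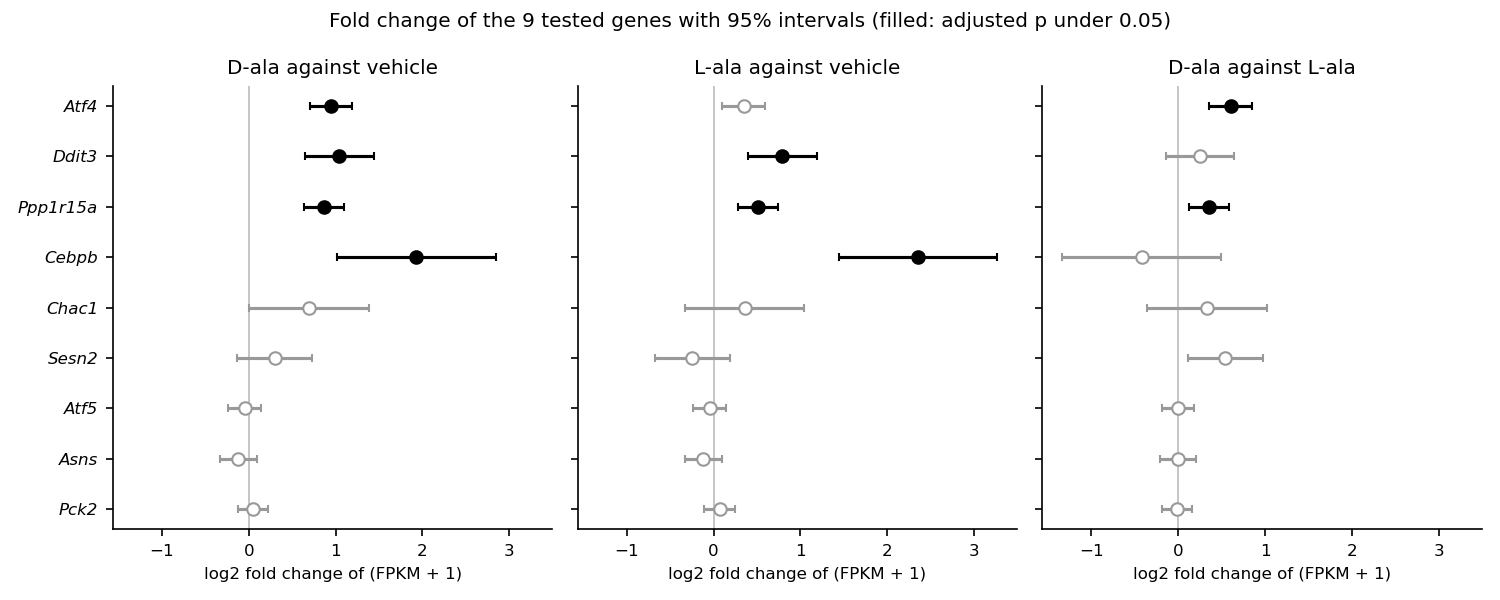
Log2 fold change of (FPKM + 1), with 95% intervals, of the 9 tested genes in 3 panels, which set each alanine against vehicle and then D-ala against L-ala; filled points passed an adjusted p under 0.05. Atf4, Ddit3, Ppp1r15a and Cebpb are filled in the first panel, Ddit3, Ppp1r15a and Cebpb in the second, and Atf4 and Ppp1r15a in the third.

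The remaining factor gave no such difference, and the gene of the feedback kinase-like protein was too low to test. Atf5, an ATF4 relative that is translated under the same stress, had 8.52, 9.34, 7.46, 8.49 and 8.66 FPKM in D-ala libraries, against 8.92, 10.2, 9.29, 7.94 and 7.76 FPKM in vehicle libraries. D-ala replicate 3 lay below every vehicle library and the other 4 were among them; the interval of the log2 fold change was -0.24 to 0.14 (adjusted p = 0.792). Trib3, whose protein binds ATF4 and CHOP and restrains the response, had 0.266, 1.15, 0.643, 0.612 and 0.404 FPKM in D-ala libraries, against 0.589, 0.466, 0.498, 0.860 and 0.327 FPKM in vehicle libraries. It was too low for the filter of 1 FPKM in 5 libraries; without the filter its log2 fold change was 0.05 (adjusted p = 0.890 over 18067 genes), a value that the pseudocount of 1 FPKM pulls toward 0. A change in Trib3 was not detectable at this level.

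Among the enzymes and effectors, none passed the test with D-ala. Asns, which makes asparagine, had 1.71, 2.79, 1.70, 2.02 and 2.22 FPKM in D-ala libraries, against 2.95, 2.28, 2.13, 2.41 and 1.99 FPKM in vehicle libraries. Pck2, the mitochondrial form of phosphoenolpyruvate carboxykinase, had 5.12, 6.64, 6.997, 5.63 and 5.84 FPKM in D-ala libraries, against 6.04, 5.38, 5.49, 6.04 and 5.86 FPKM in vehicle libraries. For Asns 2 D-ala libraries lay below every vehicle library, and for Pck2 2 lay above and 1 below every vehicle library, the rest being among them. The intervals were -0.34 to 0.09 for Asns (adjusted p = 0.480) and -0.12 to 0.23 for Pck2 (adjusted p = 0.731), so a change as large as that of Atf4 lay outside both on this scale, although adding 1 FPKM shrinks changes of genes as low as Asns. Sesn2, a leucine-binding protein that restrains the growth kinase mTORC1, read 33.6, 27.7, 19.4, 22.4 and 23.4 FPKM in D-ala libraries, against 15.7, 22.8, 19.4, 18.1 and 25.6 FPKM in vehicle libraries. D-ala replicates 1 and 2 were above every vehicle library and the rest were among them; the log2 fold change was 0.30 (95% interval -0.13 to 0.73, adjusted p = 0.379), or 0.19 without D-ala replicate 1.

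Chac1, whose product degrades glutathione, had the highest coefficient of variation of the 10 genes in D-ala and in L-ala libraries on the FPKM scale, and Cebpb had it in vehicle libraries. Chac1 had 1.37, 4.81, 0.803, 1.93 and 0.957 FPKM in D-ala libraries, against 0.531, 0.561, 1.01, 0.970 and 0.369 FPKM in vehicle libraries. D-ala replicate 2 stood far above the other D-ala libraries, of which replicates 1 and 4 also lay above every vehicle library. The log2 fold change was 0.69 (SE 0.32, 95% interval 0.0027 to 1.38) and its adjusted p was 0.187. That value was 1.18 with a pseudocount of 0.1 FPKM, 1.21 with voom and 0.41 without D-ala replicate 2, uncalled in each. Spread limited the comparison, with a coefficient of variation of 83.3% in D-ala and 41.5% in vehicle libraries.

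L-ala raised 3 of the 9 tested genes against vehicle, namely Ddit3, Ppp1r15a and Cebpb, and none fell, nor did any at an unadjusted p under 0.05 in limma or with voom. Among all genes tested, 6.48% were called higher and 4.53% lower. The median log2 fold change of the 9 genes was 0.35, against 0.0070 over all genes. This comparison and the one of D-ala share the 5 vehicle libraries. The 3 genes were also those without overlap between groups, against 4.01% of all genes tested.

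Cebpb was again the gene with the largest fold change. L-ala libraries had 67.2, 92.8, 87.4, 145 and 107 FPKM, all above the highest vehicle library at 40.3 FPKM. With a ratio of means of 4.83, the log2 fold change was 2.35 (SE 0.42, 95% interval 1.44 to 3.26, adjusted p = 0.00912). Neutrophil markers were higher with L-ala, at a mean log2 level of 1.11 ± 0.21 against 0.46 ± 0.22 in vehicle libraries (SD, n = 5 each, exact permutation p = 0.00794). Macrophage and dendritic markers averaged 2.98 ± 0.14 with L-ala and 3.21 ± 0.17 in vehicle libraries (exact permutation p = 0.0556). The part of these cells in the level of Cebpb was not tested.

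Ppp1r15a had 17.97, 19.4, 23.8, 17.95 and 20.8 FPKM in L-ala libraries, each above the highest vehicle library at 17.002 FPKM. The log2 fold change was 0.51 (SE 0.11, 95% interval 0.28 to 0.74, adjusted p = 0.0129). Ddit3 had 45.4, 48.7, 76.5, 60.1 and 51.7 FPKM in L-ala libraries, each above the highest vehicle library at 42.5 FPKM. Its log2 fold change was 0.79 (SE 0.18, 95% interval 0.40 to 1.19, adjusted p = 0.0195), and it missed the threshold without vehicle replicate 4 (0.0586), without L-ala replicate 4 (0.0537) and once the trend with gene length was removed (0.0699).

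Atf4 itself did not pass with L-ala. It had 102, 99.2, 112, 112 and 96.0 FPKM in L-ala libraries, of which 2 were above every vehicle library and the other 3 were below vehicle replicate 3. The log2 fold change was 0.35 (SE 0.12, 95% interval 0.10 to 0.59, adjusted p = 0.0614), and Atf4 did pass without D-ala replicate 2 (0.0436), without L-ala replicate 5 (0.0423) or without vehicle replicate 3 (0.0302). With quantile normalization the fold change was 0.19, also uncalled.

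The other genes had intervals that held 0 with L-ala. Chac1 had 0.389, 0.925, 0.644, 1.31 and 3.42 FPKM in L-ala libraries, with L-ala replicate 5 well above the rest (log2 fold change 0.36, or 0.10 without that library and 0.60 with a pseudocount of 0.1 FPKM, 95% interval -0.33 to 1.05, adjusted p = 0.473). Sesn2 had 11.97, 23.5, 13.97, 13.6 and 24.6 FPKM, in a lower set of 3 libraries and a higher set of replicates 2 and 5 (log2 fold change -0.24, or between -0.37 and -0.13 on leaving out a library, 95% interval -0.67 to 0.19, adjusted p = 0.435). Atf5 averaged 8.56 ± 1.15 FPKM, Asns 2.08 ± 0.223, Pck2 6.12 ± 0.687 and Trib3 0.626 ± 0.167 FPKM in L-ala libraries, against 8.82 ± 1.01, 2.35 ± 0.367, 5.76 ± 0.312 and 0.548 ± 0.198 FPKM in vehicle libraries (SD, n = 5 each). Each of these 4 genes overlapped between the groups, with adjusted p-values of 0.780 for Atf5, 0.440 for Asns and 0.595 for Pck2, and 0.782 for Trib3 without the filter.

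Set directly against each other, the mirror forms differed in Atf4 and Ppp1r15a, which were both higher with D-ala and did not overlap. These were 2 of the 9 tested genes, while 7.01% of all genes tested were called higher, 6.66% lower, and 5.08% lay higher without overlap. The median log2 fold change of the 9 genes was 0.25, against -0.0090 over all genes. This was 1 pair of compounds at 1 time, at doses that the sources do not give.

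For Atf4 the lowest D-ala library, at 136 FPKM, was above the highest L-ala library, at 112 FPKM. The means were 159.8 ± 24.2 FPKM in D-ala and 104.3 ± 7.37 FPKM in L-ala libraries (SD, n = 5 each), a log2 fold change of 0.60 (SE 0.12, 95% interval 0.36 to 0.85, adjusted p = 0.00470) and a ratio of 1.53. The call held in all 25 alternatives, with adjusted p-values between 0.00137 and 0.0134. Between the same groups, neutrophil and red blood cell markers were lower with D-ala than with L-ala (exact permutation p = 0.00794 and 0.0159). Adipocyte markers averaged 3.12 ± 1.27 in D-ala and 2.40 ± 0.43 in L-ala libraries on the log2 scale (SD, n = 5 each, exact permutation p = 0.262). Proximal tubule markers averaged 8.96 and 8.91 (exact permutation p = 0.246), and macrophage and dendritic markers 2.80 and 2.98 (exact permutation p = 0.0714). The part of these cell types in the level of Atf4 was not tested.

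Ppp1r15a averaged 25.7 ± 0.980 FPKM in D-ala and 19.97 ± 2.43 FPKM in L-ala libraries (SD, n = 5 each). The lowest D-ala library, at 24.6 FPKM, was just above L-ala replicate 3, at 23.8 FPKM. The log2 fold change was 0.35 (SE 0.11, 95% interval 0.12 to 0.59, adjusted p = 0.0413). That call held in 14 of 25 alternatives; it was lost on leaving out any 1 of the 5 D-ala libraries, L-ala replicate 1, 2 or 4 or vehicle replicate 2 (adjusted p between 0.0501 and 0.108), with no filter (0.0665) and with the trend in GC content removed (0.05003).

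Sesn2 lay close to the threshold between the mirror forms. It averaged 25.3 ± 5.51 FPKM in D-ala and 17.5 ± 6.04 FPKM in L-ala libraries (SD, n = 5 each), and L-ala replicates 1, 3 and 4 were below every D-ala library. On the log2 scale the difference was 0.54 (SE 0.20, 95% interval 0.11 to 0.97, adjusted p = 0.0858), and it passed without L-ala replicate 2 (0.0495) or L-ala replicate 5 (0.0247), the 2 L-ala libraries with high Sesn2.

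No difference between the mirror forms was called for the other 6 tested genes, which does not show that the forms act alike on them. The 95% interval of the log2 difference was -0.14 to 0.64 for Ddit3 (adjusted p = 0.377), -1.33 to 0.49 for Cebpb (0.529) and -0.36 to 1.02 for Chac1 (0.513). The fold change of Chac1 was 0.33, or 0.06 without D-ala replicate 2 and 0.59 without L-ala replicate 5. For Asns it was -0.22 to 0.21 (0.983) and for Pck2 -0.19 to 0.16 (0.918), so for these low enzymes a difference of the size seen in Atf4 lay outside the interval. Atf5 had a fold change of -0.0042 and an adjusted p of 0.980. Cebpb was the only one of the 4 genes raised by D-ala whose mean was lower in D-ala than in L-ala libraries, at 80.6 ± 41.1 and 99.9 ± 29.04 FPKM (SD, n = 5 each).

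**Figure D3:**
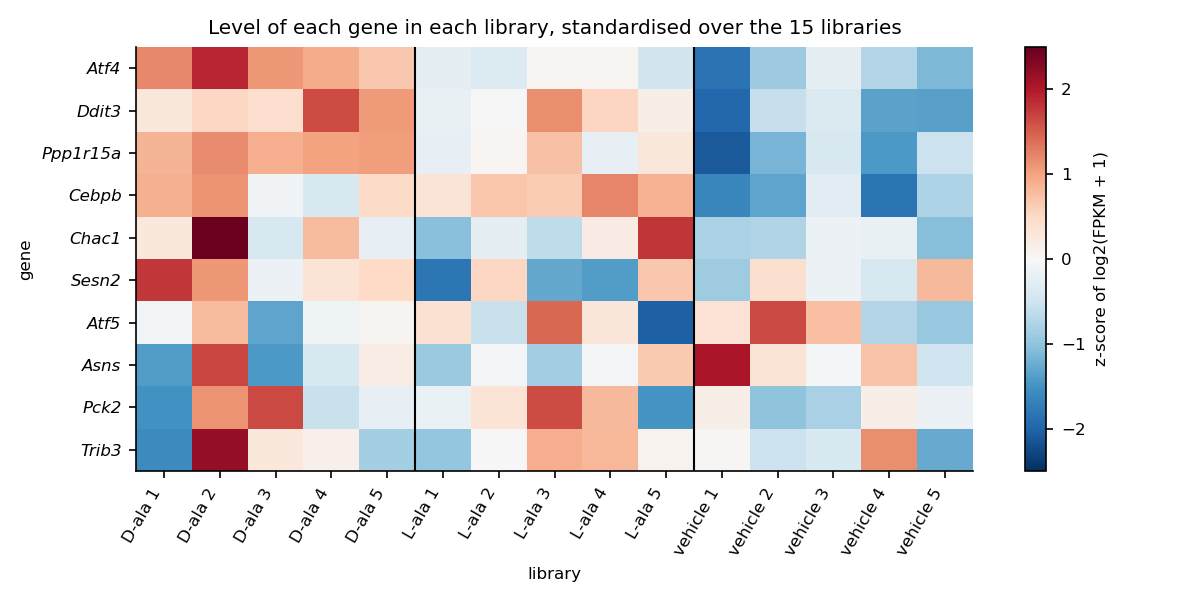
Level of each gene (down) in each library (across) as a z-score of log2(FPKM + 1) over the 15 libraries; red is above and blue below the gene's mean, and lines part D-ala, L-ala and vehicle. D-ala libraries are red for Atf4, Ddit3 and Ppp1r15a, and D-ala replicate 2 is the reddest of its group in 7 of the 10 genes.

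Within a group, some libraries were high in several genes at once. D-ala replicate 2 was the highest of its group in 7 of the 10 genes, Ddit3, Sesn2 and Pck2 being the exceptions. L-ala replicate 3 was the highest of its group in 6 genes and L-ala replicate 1 the lowest in 6. Vehicle replicate 3 was the highest vehicle library in 5 genes, namely Atf4, Ddit3, Chac1, Ppp1r15a and Cebpb, so 4 of these 5 are the genes that rose with D-ala.

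The profile of Atf4 over the 15 libraries was compared with those of all genes tested by the mean absolute difference of z-scores, which had a median of 1.13. Of the 10 genes, Ppp1r15a was nearest at 0.385, then Ddit3 at 0.540, Chac1 at 0.654 and Cebpb at 0.703. Their ranks among all genes tested were 36, 247, 629 and 870. Sesn2 at 0.952 and Pck2 at 1.01 were nearer than the median gene, at ranks 3176 and 3908. Atf5 at 1.09 and Asns at 1.17 were about as far as the median gene, at ranks 5256 and 6709. Among the nearest genes outside the 10 were Emd at 0.243, Tnfaip1 at 0.279, Zfp295 at 0.280 and Slc3a2 at 0.287. Emd, which codes for emerin of the nuclear envelope, averaged 67.4 ± 25.1 FPKM in D-ala, 35.6 ± 1.51 in L-ala and 24.3 ± 5.35 in vehicle libraries (SD, n = 5 each). Slc3a2, the heavy chain shared by several amino acid exchangers, averaged 160.7 ± 20.6, 124.1 ± 10.6 and 101.5 ± 22.6 FPKM in D-ala, L-ala and vehicle libraries.

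Relatives of the 10 genes gave mixed calls, also within a family. Trib1 rose with D-ala, at 10.8 ± 1.51 FPKM against 6.18 ± 1.36 in vehicle libraries (SD, n = 5 each; log2 fold change 0.72, adjusted p = 0.00538), and with L-ala, at 10.2 ± 2.66 FPKM (0.63, adjusted p = 0.0191, or 0.0628 without vehicle replicate 4). Trib2 did not pass with D-ala (log2 fold change -0.57, adjusted p = 0.170). The cytosolic partner of Pck2, Pck1, the kidney's main enzyme of that step in glucose production, rose with D-ala to 4136 ± 554 FPKM, against 2437 ± 749 in vehicle libraries (0.82, adjusted p = 0.00989). With L-ala Pck1 averaged 3154 ± 257 FPKM and did not pass (0.43, adjusted p = 0.1245). Proximal tubule markers were higher with both forms, 3 of the 7 being called with each. Their part in the level of Pck1 was not tested. Chac2 (-0.14, adjusted p = 0.194), Sesn1 (-0.32, adjusted p = 0.0795) and Sesn3 (0.07, adjusted p = 0.526) did not pass with D-ala, though Sesn1 did with voom and without vehicle replicate 3. In all, 5 of the 11 relatives were called higher and 1 lower with D-ala, and 3 and 0 with L-ala. In D-ala against L-ala 1 was higher and 2 were lower. Over all genes tested, 6.53% were called higher and 4.92% lower with D-ala, and 6.48% and 4.53% with L-ala. Between the forms these shares were 7.01% and 6.66%, and they are the ones to set beside the main calls of each list below. For L-ala against vehicle the main fit called 1297 of all genes tested. Voom called 2126, of which 13.3% were higher, and the fit without L-ala replicate 5 called 2577, of which 59.3% were higher. Between the forms the fit without that library called 2763, against 1611 in the main fit. Shares over all genes at an unadjusted p are not given here. Atf3, Cebpa, Cebpd, Cebpg and Ppp1r15b are counted again in lists below. The count of lower relatives with D-ala ran from 0 to 3 over the alternatives (2 without L-ala replicate 5), and that of higher ones with L-ala was 1 without vehicle replicate 4.

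Upstream of ATF4 lie the eIF2α kinases, their helpers and the phosphatase. Of 10 such genes, 2 were called higher with D-ala, none with L-ala and 4 in D-ala against L-ala, and none was lower. With L-ala no gene of the list reached an unadjusted p under 0.05 in limma, and voom called 1 lower, as did limma without L-ala replicate 5 (Gcn1l1, adjusted p = 0.0269). Impact, which codes for an inhibitor of the amino acid sensing kinase GCN2, had 18.4, 25.4, 18.3, 17.4 and 18.2 FPKM in D-ala, against 10.5, 8.50, 9.61, 12.3 and 10.2 in L-ala and 10.4, 10.2, 12.97, 12.5 and 10.3 in vehicle libraries. No D-ala library overlapped with the other groups, and the log2 fold change was 0.73 against vehicle (SE 0.11, adjusted p = 3.97e-04) and 0.87 against L-ala (adjusted p = 1.59e-04). Ppp1r15b, the constitutive counterpart of Ppp1r15a, averaged 30.4 ± 2.27 FPKM in D-ala, 23.2 ± 2.46 in L-ala and 23.7 ± 1.56 in vehicle libraries (SD, n = 5 each), with adjusted p-values of 0.00611 against vehicle and 0.00454 against L-ala. Gcn1l1, a GCN2 activator, was higher in D-ala than in L-ala libraries by a log2 fold change of 0.47 (adjusted p = 0.0165). All of these calls held in every alternative run.

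**Figure D4:**
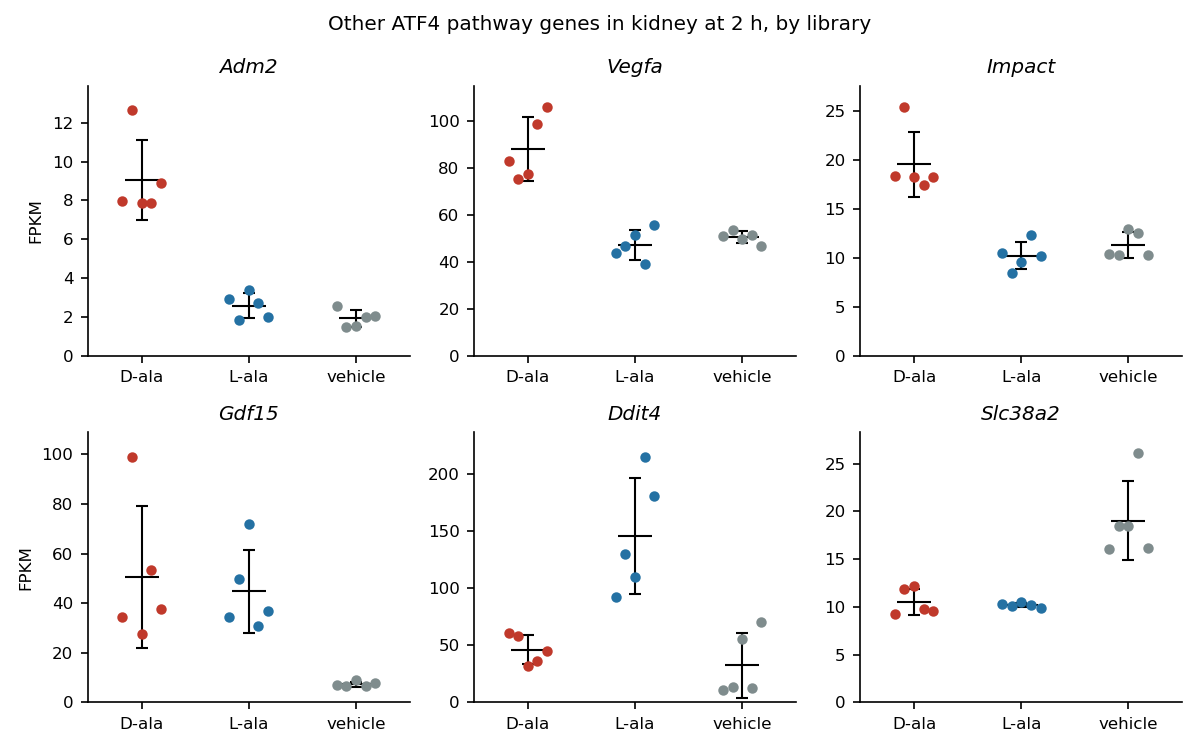
FPKM of 6 further genes of the pathway in each library (points), with the mean and SD of the 5 libraries of a group (bars), for D-ala, L-ala and vehicle; every vertical axis starts at 0. Adm2, Vegfa and Impact are high in D-ala libraries only, Gdf15 is high in both alanine groups, Ddit4 is highest in L-ala libraries, and Slc38a2 is lower in both alanine groups than in vehicle.

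Secreted and growth-restraining targets held the largest fold changes of the 7 related lists. Of 10 tested genes of that list, 4 were higher with D-ala, 3 with L-ala and 2 in D-ala against L-ala, with none lower (voom called 1 lower in D-ala against L-ala, as did limma at an unadjusted p under 0.05). With L-ala, Eif4ebp1 of that list was also called higher without L-ala replicate 5 (adjusted p = 0.0352). That fit called 2577 of all genes, against 1297 in the main fit. Adm2, a secreted peptide of the calcitonin family, had 7.95, 12.7, 7.84, 7.87 and 8.90 FPKM in D-ala, against 2.95, 1.85, 3.38, 2.70 and 1.99 in L-ala and 2.59, 1.48, 1.53, 2.00 and 2.04 in vehicle libraries. Its D-ala values lay far above both other groups, with a log2 fold change of 1.77 against vehicle (SE 0.14, adjusted p = 1.54e-06) and 1.49 against L-ala (SE 0.14, adjusted p = 1.67e-05). Vegfa, the endothelial growth factor, averaged 88.2 ± 13.6 FPKM in D-ala, 47.4 ± 6.43 in L-ala and 50.7 ± 2.54 in vehicle libraries (SD, n = 5 each), and was higher with D-ala by 0.78 against vehicle (adjusted p = 1.40e-04) and 0.88 against L-ala (adjusted p = 7.14e-05).

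Gdf15, a secreted stress signal that reduces food intake, rose with both forms. It averaged 50.5 ± 28.7 FPKM in D-ala and 44.8 ± 16.8 in L-ala libraries, against 7.32 ± 1.01 in vehicle libraries (SD, n = 5 each), with log2 fold changes of 2.49 (adjusted p = 2.07e-04) and 2.40 (adjusted p = 0.00127). Ddit4, an inhibitor of mTORC1, was the gene of this list that rose with L-ala and not with D-ala in the separate tests, at 46.2 ± 12.9 FPKM in D-ala, 145.3 ± 50.7 in L-ala and 32.5 ± 28.5 in vehicle libraries. Its log2 fold change with L-ala was 2.51 (SE 0.51, adjusted p = 0.0146, or 0.0505 with only the 2 groups compared in the fit), whereas D-ala against L-ala missed the threshold (-1.61, adjusted p = 0.0549). Herpud1, of protein quality control in the endoplasmic reticulum, rose with D-ala (0.38, adjusted p = 0.0307) and with L-ala (0.46, adjusted p = 0.0187). Its call with D-ala was lost in 7 of 25 alternatives, among them the fits without D-ala replicate 1 or 2 or vehicle replicate 1, 2 or 4, and that with L-ala in 3, without L-ala replicate 4 or vehicle replicate 4 or with quantile normalization.

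Amino acid carriers were called in both directions with D-ala. Slc38a2, a sodium-coupled carrier of alanine and other small neutral amino acids, fell with both forms, to 10.6 ± 1.37 FPKM in D-ala and 10.2 ± 0.234 in L-ala libraries, against 19.1 ± 4.11 in vehicle libraries (SD, n = 5 each). Its log2 fold changes were -0.78 (adjusted p = 2.51e-04) and -0.82 (adjusted p = 8.22e-04), and no library of either form overlapped with vehicle. Slc3a2 rose with D-ala (0.67, adjusted p = 0.00244), and Slc1a5, a glutamine carrier, was higher in D-ala than in L-ala libraries (0.39, adjusted p = 0.00538). Against vehicle Slc1a5 passed with D-ala (0.29, adjusted p = 0.0208), though not without D-ala replicate 2 or vehicle replicate 1 or 5, with voom or with the trend in GC content removed, and Slc1a4 passed as lower with L-ala (-0.43, adjusted p = 0.0456), a call lost in 11 of the 15 fits that leave out a library. Of the 6 tested carriers among 10, 2 were higher and 1 lower with D-ala, 0 and 2 with L-ala, and 1 and 0 in D-ala against L-ala. With L-ala voom called 4 of the 6 lower and limma had 4 lower at an unadjusted p under 0.05, while 15 of the 25 alternatives called 1. Over all genes voom called 2126 in that comparison, of which only 13.3% were higher. In D-ala against L-ala 2 were called higher in 6 of the alternatives, voom among them.

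Among 12 aminoacyl-tRNA synthetases and the tRNA export factor Xpot, 6 of 13 genes were higher with D-ala, none changed with L-ala, and 3 were higher in D-ala than in L-ala libraries. With L-ala 2 of the 13 were higher at an unadjusted p under 0.05 in limma, and voom called none. The fold changes were small, with a median on the log2 scale of 0.20 with D-ala and 0.06 with L-ala. Aars, which charges tRNA with alanine, averaged 28.8 ± 1.79 FPKM in D-ala, 23.2 ± 0.973 in L-ala and 22.7 ± 1.28 in vehicle libraries (SD, n = 5 each), with a log2 fold change of 0.33 against vehicle (adjusted p = 0.00109) and 0.30 against L-ala (adjusted p = 0.00321). Sars (0.23, adjusted p = 0.0150) and Eprs (0.26, adjusted p = 0.0137) rose with D-ala. Iars (0.22, adjusted p = 0.0226) and Eprs (0.20, adjusted p = 0.0430) were the other genes higher in D-ala than in L-ala libraries. That call of Eprs was lost in 14 of 25 alternatives (adjusted p up to 0.120), among them the fits without any 1 of D-ala replicates 1 to 4, L-ala replicates 1 to 4 or vehicle replicates 1 and 2, and that of Iars in 5. The count with D-ala dropped to 3 without D-ala replicate 2, without vehicle replicate 4 or with voom on the rescaled counts, and that of D-ala against L-ala dropped to 1 without D-ala replicate 2 or 3 or L-ala replicate 1 or 4 or with the trend in gene length removed.

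Enzymes of amino acid and one-carbon synthesis moved little. Of 10 tested genes, 2 were higher with D-ala and 2 with L-ala, namely Shmt2 and Got1 in both, and none differed between the forms by limma or voom (2 were lower with D-ala at an unadjusted p under 0.05). Shmt2, a mitochondrial enzyme of the serine and one-carbon pathway, averaged 158.3 ± 8.48 FPKM in D-ala and 149.0 ± 6.31 in L-ala libraries, against 128.6 ± 9.53 in vehicle libraries (SD, n = 5 each), and its rise of 0.30 with D-ala (adjusted p = 0.00402) held in every alternative. Got1 with either form and Shmt2 with L-ala passed with adjusted p-values between 0.0272 and 0.0439 and were lost on leaving out vehicle replicate 1 or 4, among others (Got1 in 14 of 25 alternatives with D-ala and 6 with L-ala, Shmt2 in 9 with L-ala). Phgdh, Psph and Mthfd2, textbook ATF4 targets of serine and folate metabolism, did not pass with D-ala, with adjusted p-values of 0.463, 0.802 and 0.985.

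Partner factors of the leucine zipper family changed in both directions. Cebpd rose with D-ala, to 28.6 ± 10.5 FPKM, and with L-ala, to 29.1 ± 12.5 FPKM, against 6.71 ± 4.86 FPKM in vehicle libraries (SD, n = 5 each; log2 fold changes 2.07 and 2.08, adjusted p = 0.00959 and 0.0155). Atf3, a stress factor of the same family, averaged 11.9 ± 2.71 FPKM in D-ala and 11.02 ± 5.12 in L-ala libraries, against 3.82 ± 3.06 in vehicle libraries (SD, n = 5 each). It passed with D-ala (adjusted p = 0.0257) and with L-ala (adjusted p = 0.0438), but not in all alternatives, with adjusted p-values up to 0.0620 and 0.104. For D-ala the call was lost without D-ala replicate 2, 4 or 5 or vehicle replicate 4 or 5, and for L-ala without any 1 of the D-ala libraries, L-ala replicates 1 to 4 or vehicle replicate 1, 4 or 5. Between the forms, Nfe2l2, which codes for the antioxidant factor NRF2, was higher with D-ala (0.37, adjusted p = 0.00115), and Cebpa (-0.31, adjusted p = 0.0171) and Cebpg (-0.26, adjusted p = 0.0134) were lower, and these 3 calls held in every alternative. Against vehicle, Cebpa was lower with D-ala (-0.26, adjusted p = 0.0409) and Nfe2l2 lower with L-ala (-0.20, adjusted p = 0.0375), each call being lost in 9 of 25 alternatives (adjusted p up to 0.0891 and 0.105). Those losses were, for Cebpa, without D-ala replicate 1, 3, 4 or 5, without vehicle replicates 2 to 5 or with no filter, and, for Nfe2l2, without L-ala replicate 1, 3 or 4, without vehicle replicates 1 to 4, with no filter or with only 2 groups in the fit. Cebpg (-0.19, adjusted p = 0.0506) and Nfe2l2 (0.17, adjusted p = 0.0608) missed the threshold with D-ala and passed it without L-ala replicate 5 (0.0486 and 0.0497). Of 7 such genes, 2 were called higher and 1 lower with D-ala, 3 and 1 with L-ala, and 1 and 2 in D-ala against L-ala. With D-ala the higher count ran from 1 to 3 and the lower from 0 to 2 over the alternatives; with L-ala the higher count was 1 in 10 of them and the lower 0 in 9.

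The chaperone branch of the unfolded protein response, which XBP1 and ATF6 drive, was measured beside ATF4 because stress in the endoplasmic reticulum also acts through eIF2α. Of its 12 genes, Creld2 alone was called with D-ala (0.25, adjusted p = 0.0459), and it was lost in 17 of 25 alternatives. The chaperone Hspa5 averaged 192 ± 14.1 FPKM in D-ala, 238 ± 23.1 in L-ala and 202 ± 18.7 in vehicle libraries (SD, n = 5 each). It was lower in D-ala than in L-ala libraries (-0.31, adjusted p = 0.0200, or up to 0.0821 without D-ala replicate 3 or with quantile normalization), as was Hsp90b1 (-0.22, adjusted p = 0.0129). Xbp1 itself, which codes for the factor XBP1, was called higher in D-ala than in L-ala libraries, at 126.4 ± 31.7 and 91.7 ± 8.51 FPKM (SD, n = 5 each; log2 fold change 0.43, adjusted p = 0.0463), a call lost in 17 of 25 alternatives, with adjusted p-values up to 0.123. Between the forms the tally was thus 1 higher and 2 lower, and Sdf2l1 was also lower without L-ala replicate 5 (0.0243), while Xbp1 was not called (0.0515). With L-ala against vehicle Creld2 and Hsp90b1 were called higher (adjusted p = 0.0200 and 0.0435), in 20 and 11 of 25 alternatives and both not without L-ala replicate 4 or vehicle replicate 4; voom called none higher and 2 of the list lower. Without L-ala replicate 5, Manf was also called higher (0.0439) and Dnajb9 lower (0.0214) with L-ala. In that comparison Hsp90b1 turned to -0.0028 with quantile normalization. With D-ala against vehicle the median log2 fold change of the 12 genes was -0.0080, against 0.0011 over all genes tested.

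**Figure D5:**
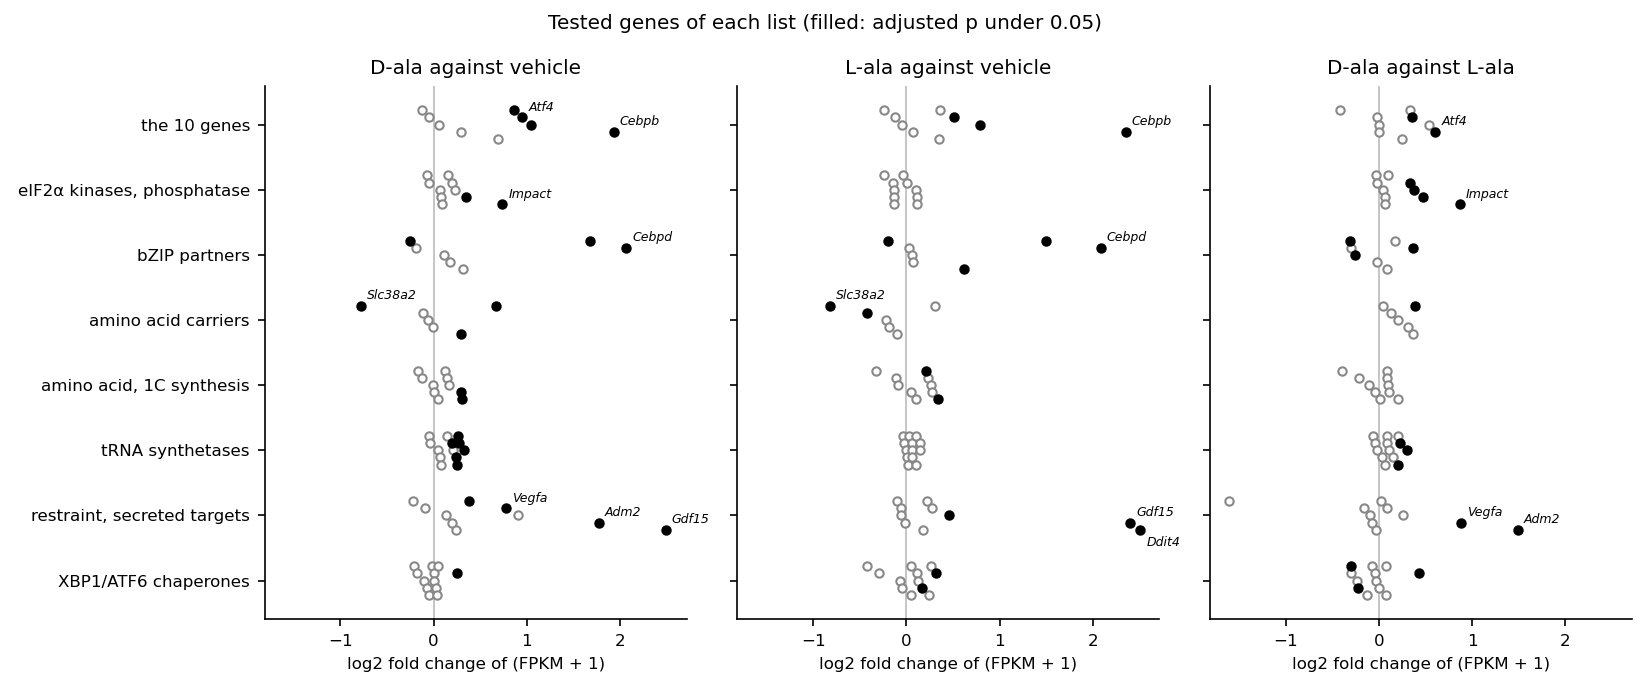
Log2 fold change of (FPKM + 1) of every tested gene of the 10 genes and of 7 related lists (down) in the 3 comparisons; filled points passed an adjusted p under 0.05 and open points did not. Filled points lie to the right for the 10 genes and for secreted targets. For tRNA synthetases they stay close to 0 and are absent in L-ala against vehicle. Leucine zipper partners have them on both sides in every comparison, and carriers only in D-ala against vehicle.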

How the data were processed

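Per the labels' protocols, RNA of whole kidney was taken up in TRIzol and libraries were made with a TruSeq stranded mRNA kit. Bowtie2 2.2.3, TopHat2 2.0.13, build mm10 and SAMtools 0.1.19 were used, per the submitters' processing notes; the counting program, annotation and use of strand are not given in those notes or labels, so reads of genes that overlap (Atf5 with Nup62, Ppp1r15a with Tulp2, Cebpb with Tmem189, Sesn2 with Gm12981, Pck2 with Gm10876) may have been shared out between them. The authors deposited FPKM per gene and library, named so per the file headers. A deposited log2 column, called processed signal per the file headers, lay within 0.0012 of gene-centred log2 FPKM over 10664 genes. A deposited count column was treated as a score, since its numbers are counts multiplied by 1 factor per library and rounded; it gave the depth, gene length and the voom alternative.

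The test took in the 11781 genes that reached 1 FPKM in 5 libraries and left out 11503. It was run on log2(FPKM + 1), in limma 3.58.1 (R 4.3.3, variance trend, robust), as 1 linear model of the 15 libraries with 1 mean per group. P-values were Benjamini-Hochberg adjusted within each of 3 comparisons and called under 0.05; the designed branch for count data was not used because raw counts were not at hand. Every adjusted p in the text is limma's; single measures per library had exact two-sided permutation tests, unadjusted, and the code was tested on simulated data. FPKM carry no counting interval, so precision is the spread between libraries. The alternatives were scaling by median of ratios, quantile normalization, a pseudocount of 0.1, no filter, a mean of at least 5 FPKM, plain variances, 2 groups in the fit, removal of trends with gene length or GC content, voom, and leaving out each library; GC content was chosen after seeing the data. Gene spans are those of GENCODE M21 on GRCm38 and promoter windows those of RefSeq on GRCm38.p6. All 10 genes were to be named, with up to 3 called genes of each related list by smallest p per comparison, all relatives, and the 5 genes nearest to Atf4, of which 1 is not reported here. The genes and lists were chosen with earlier results of these data known.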

Additional observations from a re-analysis of the deposited data

Results flagged for a closer look

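Chac1 in D-ala replicate 2 was far from the other 4 D-ala libraries: the gap to the next library, at 1.93 FPKM, was 0.7174 of the range of the group, above the critical value (Dixon, 0.71) for 5 samples. It was the one library so marked among 30 groups of 5 (10 genes in 3 groups), of which chance marks about 1 in 20. Without it the log2 fold change of Chac1 for D-ala against vehicle was 0.41, uncalled as before.

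The effect against vehicle differed between the alanine forms in 2 genes, by a test of D-ala against L-ala itself. The difference was 0.6019 on the log2 scale for Atf4 (adjusted p = 0.00470 by limma), with 5 of 5 D-ala libraries above every L-ala library. For Ppp1r15a it was 0.3549 (adjusted p = 0.0413 by limma), also with 5 of 5 D-ala libraries above every L-ala library, and that call depended on single libraries.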

How the results depend on the processing

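No call among the 10 genes changed for D-ala against vehicle in the 25 alternatives. For L-ala against vehicle the count of called genes ran from 2 to 4 on leaving out a library. Between the forms it was 2; it ran from 1 to 3 on leaving out a library, and was 1 with no filter and 1 with the trend in GC content removed, since Ppp1r15a was lost. The sign of small, uncalled changes turned in places, where the cause was not tested. With voom, Pck2 read -0.0017 for D-ala against vehicle, -0.0254 for L-ala against vehicle and 0.0237 between D-ala and L-ala. In that last comparison, Atf5 read 0.0018 with median-of-ratios scaling, 0.0412 with the length trend removed, 0.0248 with voom and 0.0164 with the GC trend removed, and Asns 6e-04, 0.032 and 0.0404 under the first 3 of these. Hsp90b1, called for L-ala against vehicle, read -0.0028 with quantile normalization. On leaving out a library, Atf5 ran from -0.0862 to 0.0028 for D-ala against vehicle, from -0.0946 to 0.0248 for L-ala against vehicle, and from -0.0711 to 0.0484 between D-ala and L-ala; in the last comparison Asns ran from -0.0806 to 0.042 and Pck2 from -0.068 to 0.0329. Over single genes and list counts, 2276 values were scored as unchanged. For a gene that meant the same side of the threshold, and for a list a count near the main one. For single genes, 182 calls were lost, 15 were gained and 28 values turned sign. List counts scored as moved are not in this tally, so it overstates how steady the lists were.

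The count over all genes moved more. For L-ala against vehicle it was 1297, and 575 with quantile normalization, 603 with only 2 groups in the fit, 749 with the length trend removed, 2126 with voom and 321 (without vehicle replicate 4) to 2577 (without L-ala replicate 5) on leaving out a library. Between the forms it was 1611, 975 with only 2 groups, and 770 (without L-ala replicate 4) to 2763 (without L-ala replicate 5); for D-ala against vehicle it was 1349, and 814 without vehicle replicate 4. The share called higher was 57.0% for D-ala against vehicle and 30.1% with voom, 58.8% for L-ala against vehicle, 40.7% with quantile normalization and 13.3% with voom, and 51.3% for D-ala against L-ala and 70.4% with voom. Voom moved the median of all genes to -0.10 for L-ala against vehicle. Low levels limit Chac1 and Trib3. No paired analysis was possible because the labels give the groups no shared replicate numbers.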
